A study of Pomatostomus ruficeps with 28 samples.

Results

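Chestnut-crowned babbler nestlings (*Pomatostomus ruficeps*) bled at an age of 17 days or more were set against nestlings bled at 15 days or less, by the age given for each nestling in the deposited table. Of the 28 nestlings of the series, 8 were older and 13 were younger, and the 7 nestlings aged 16 days were left out of the comparison. The older nestlings were 17 days (4 nestlings), 18 days (1), 19 days (2) and 20 days (1) old, and the younger ones 14 days (7) and 15 days (6). Among the older nestlings 6 were raised by a cooperative group (3 or more carers) and 2 by a pair, against 8 and 5 of the younger ones. All were wild nestlings of 1 population, studied over 2 breeding seasons. Their eggs had been hatched in an incubator, and some were returned to an unrelated nest. Whole blood was drawn once per nestling, so that age was compared between nestlings and not within a nestling. The DNA was converted enzymatically, a treatment after which only methylated cytosines are still read as cytosine, and sequenced across the genome. The study was designed to compare nestlings raised by groups with those raised by pairs, and age entered its models as a covariate.

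DNA methylation in birds is found mainly at CpG sites, where a cytosine is followed by a guanine. The mark is placed by DNA methyltransferases, copied when DNA is replicated, and removed through oxidation by TET enzymes or lost over rounds of cell division. The red blood cells of birds keep their nucleus, so most of the DNA in a blood sample is theirs, and a shift in the proportions of blood cell types cannot be told apart from a shift within a cell type in such samples. In altricial nestlings, the weeks before fledging are a period of fast growth, in which the production of red cells and the immune system mature.

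Each value was the percentage of methylated reads at 1 CpG site in 1 nestling. A site was tested where at least 5 of the 8 older and 8 of the 13 younger nestlings had a value, which was so at 1398982 of 1564780 sites. Mean reads per value, as recovered from the deposited coverage, were 9.14 ± 0.946 in older nestlings and 9.94 ± 2.03 in younger ones (SD, n = 8 and 13; exact two-sided permutation test, p = 0.317). The number of sites with a value ranged from 951927 to 1433401 per older nestling and from 813513 to 1496607 per younger nestling (exact permutation test, p = 0.983). Recovered reads summed to between 7520205 and 15160360 per older nestling and to between 6532174 and 19539803 per younger nestling. On the median of 9 recovered reads behind a value, 1 read moved it by 11.1 percentage points. The methods of the study remove sites covered less than 10 times. Yet 61.8% of older and 55.1% of younger tested values had under 10 recovered reads. In nestling 79687, which has deposited counts, the lowest count was 10 reads. The recovered reads could not be checked against deposited counts, so this conflict was not resolved.

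The share raised by groups did not differ detectably between the ages (6 of 8 older against 8 of 13 younger nestlings, Fisher's exact test, p = 0.656). The older nestlings came from 8 natal groups and the younger ones from 10, and only 2 natal groups, OFS and CEG, had nestlings of both ages. Outside these 2, age and natal group cannot be told apart. The first digit of the ring number also went with age: 6 of 8 older nestlings had a number starting with 6, against 2 of 13 younger ones (Fisher's exact test, p = 0.0176, and 0.0967 after Benjamini-Hochberg adjustment over the 11 measures compared). Within both OFS and CEG, the older nestling had a number starting with 6 and the younger ones had numbers starting with 7. The labels do not say what the series of rings stands for. They also do not give the breeding season of a nestling, so whether season went with age is not known here. Whether cross-fostering went with age was not examined. The growth rate of the deposited table, given without a unit, was lower in older nestlings, at 0.0648 ± 0.00381 in older and 0.0754 ± 0.00408 in younger nestlings (SD, n = 7 and 13; exact permutation test, adjusted p = 0.000568). The methods of the study divide the gain in mass since hatching by age, and a rate formed in this way can depend on age by construction. The deposited rate was given for 7 older and 13 younger nestlings, but a hatching mass for only 5 and 10. How the deposited rate was formed is therefore not known here. This difference is a description, and its cause was not tested. Hatching mass did not pass its test (exact permutation test, p = 0.349), and its values spanned 2.77 to 3.62 in 5 older and 2.60 to 3.40 in 10 younger nestlings.

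Mean methylation was nearly equal in the age classes over the sites compared. These sites were left after the authors had removed those of little variation, so their mean is not that of the whole genome. Over the own sites of each nestling, the mean was 85.5% in older and in younger nestlings, a difference of 0.0384 points. At the 15567 sites that every one of the 21 nestlings had values for, older nestlings had 79.5% (lowest), 81.0% (median) and 82.6% (highest), and younger nestlings 78.1%, 81.2% and 82.3%. The 2 classes overlapped over almost the whole range, and the lowest value belonged to nestling 79676, a 14-day-old raised by a pair. The means were 80.99 ± 0.985% in older and 80.97 ± 1.19% in younger nestlings (SD, n = 8 and 13), a difference of 0.0223 percentage points (exact two-sided permutation test, p = 0.966). Within nestlings raised by groups the difference was 0.349 points (n = 6 and 8; exact permutation test, p = 0.452), and within those raised by pairs it was -1.05 points (n = 2 and 5; exact permutation test, p = 0.476). The difference between these 2 values did not pass its own test (1.40 points, exact permutation of carer class within age class, p = 0.190). Within the ring numbers starting with 6 it was -0.683 points, and within those starting with 7 it was 0.258 points.

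Taken as a number of days, age showed no relation to mean methylation that passed a test. Over the 7729 sites read in all 28 nestlings, Pearson's r was 0.0514 (permutation p = 0.796) and Spearman's rho 0.0428 (permutation p = 0.831). Without the 2 nestlings farthest from the median age, r was 0.0422. Within the 19 nestlings raised by groups r was 0.254 (permutation p = 0.294), and within the 9 raised by pairs it was -0.189 (permutation p = 0.628). Age and mean reads per value had an r of -0.182 (permutation p = 0.356). Mean reads per value and mean methylation had an r of -0.202 (permutation p = 0.302) and a rho of -0.423 (permutation p = 0.0255). With residuals of mean methylation on mean reads, r with age was 0.0148 (permutation p = 0.938).

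**Figure D1:**
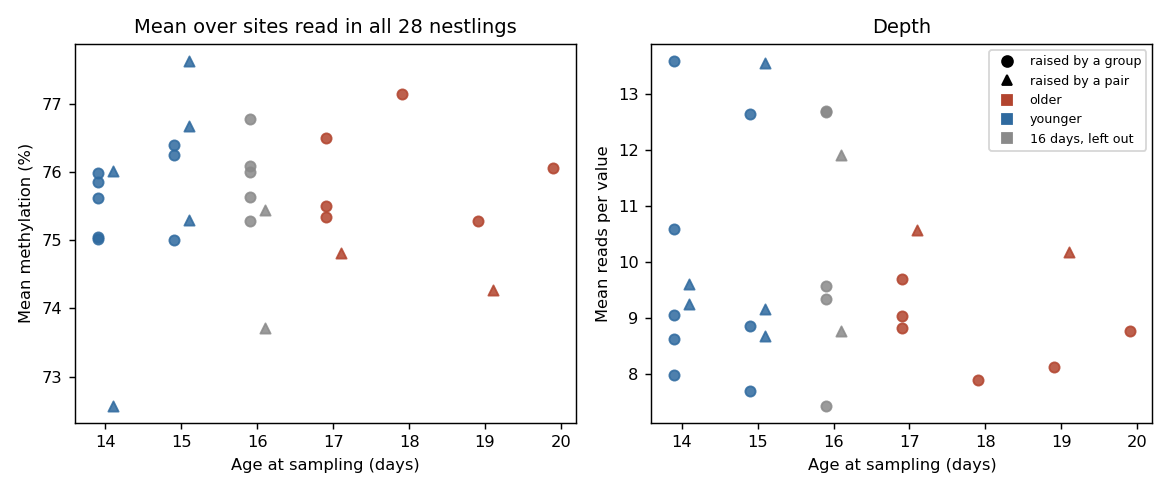
Mean methylation over the sites read in all 28 nestlings (left, percent) and mean reads per value (right) against age at sampling in days, 1 point per nestling, with circles for nestlings raised by a group and triangles for those raised by a pair. The 8 older nestlings (red) lie between 74.3 and 77.2% and the 13 younger ones (blue) between 72.6 and 77.6%.

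No class of sites passed a test of the difference either. Each nestling's deviation from the mean of a site was averaged over a class, and the older nestlings exceeded the younger ones by -0.126 points at 1082 sites of low methylation (mean under 20%), by 0.104 points at 274515 intermediate sites (20 to 80%) and by 0.0107 points at 1123385 sites above 80%. At sites with another tested site within 100 bp the difference was 0.0643 points, and at sites without one it was -0.386 points. None of the 5 differences passed a permutation test (exact, adjusted p = 0.985 for each). The value at low sites moved with their definition, to -1.03 points at 268 sites under 10% (exact permutation test, adjusted p = 0.197) and to -0.317 points with classes taken from the 16-day nestlings (exact permutation test, adjusted p = 0.990). Sites that varied little between nestlings had been removed by the authors, so that these classes describe variable sites.

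The spread of nestlings within an age class did not pass its test. The mean absolute deviation from the other nestlings of the class was 9.07 ± 0.363 points in older and 8.61 ± 0.661 points in younger nestlings (SD, n = 8 and 13; exact permutation test, p = 0.0856). This measure is larger in a smaller class by construction. Scaled for the number of nestlings in each class, a correction chosen after the values were seen, the difference was 0.214 points (exact permutation test, p = 0.400). With all sites of each nestling the unscaled difference passed the test (0.475 points, exact permutation p = 0.00127) and the scaled one did not (0.135 points, exact permutation p = 0.279). The spread values were formed within the actual classes and were not formed anew for each permutation. The p-values for the spread are therefore a description.

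At single sites, 65 CpG sites passed both limits of the study in a beta regression with carer class as a covariate. These limits were a p-value of 0.01 or less after Benjamini-Hochberg adjustment across the genome and model-predicted means at least 25 points apart. The study's model also had brood as a random term and cross-fostering status as a covariate, and neither was used here. The 65 sites were 0.00465% of the 1398977 sites fitted. Methylation was higher in older nestlings at 30 of them (0.00214% of the sites fitted) and lower at 35 (0.0025%), so that 46.2% were higher in older nestlings (95% Wilson interval 34.6 to 58.1%). Over all tested sites the raw difference was positive at 50.7%, with a median of 0.0975 points. The p limit alone was passed by 2435 sites (0.174%), of which 941 were higher (0.0673%) and 1494 lower (0.107%) in older nestlings. The called sites lay on 64 scaffolds, and no pair of them was within 2 kb.

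Most of the called sites were of intermediate methylation. Over all nestlings, 53 of the 65 averaged between 20 and 80% and 12 above 80%, whereas 19.6% of all tested sites were intermediate and 80.3% above 80%. Their median level was 76.2%, against 87.1% over all tested sites. Among the 865 sites with raw means at least 25 points apart, called or not, 79.0% were intermediate, so that the share among the called sites was near that of all sites with such a difference. Raw means were at least 25 points apart at 55 of the 65 (25 higher and 30 lower in older nestlings), and the raw differences ran from -46.8 to 33.4 points. The 865 sites with raw means that far apart were 0.0618% of all tested sites.

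The sites described next are the 5 with the largest raw difference in each direction among those 55. No gene annotation was used, so each is given by scaffold and position in the babbler assembly to which the authors mapped their reads, and whether a site lies in a gene is not known here. All p-values for them are those of the beta regression, adjusted over all sites.

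Among the called sites, the largest excess in older nestlings was at position 33067 of scaffold VYZT01038928.1. Methylation was 100, 88.9, 100, 100 and 100% in the 5 older nestlings with a value, against 40% (lowest), 66.7% (median) and 83.3% (highest) in 9 younger nestlings. Each older nestling lay above each younger one. The means were 97.8 ± 4.97% in older and 64.4 ± 13.4% in younger nestlings, 33.4 points apart (adjusted p = 0.000113). Pooled over nestlings, 34 reads in older and 95 reads in younger nestlings were behind these values, and a median of 6 reads per older nestling stood against 10 per younger nestling.

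At position 55093 of scaffold VYZT01036062.1 the older nestlings had 83.3, 100, 90.9, 100 and 100%, against 35.3, 62.5 and 81.8% (lowest, median and highest) in 9 younger nestlings. The classes did not overlap here either, and the means differed by 30.8 points (adjusted p = 0.00237). With natal group as a random intercept the call was lost (adjusted p = 0.022). At the cytosine 1 base further on, position 55094, the older nestlings averaged 89.8% and the younger ones 78.2%, a difference of 11.6 points in the same direction.

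Position 300457 of scaffold VYZT01023722.1 had values in 7 older nestlings, from 75.0% (lowest) over 100% (median) to 100% (highest), and in 10 younger nestlings, from 31.2 over 66.2 to 88.9%. The classes overlapped through nestling 62534, the oldest of the series at 20 days, which had 75.0%. The means differed by 30.7 points (adjusted p = 0.000347), and by 40.3 points among the nestlings raised by groups.

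At position 6186 of scaffold VYZT01006668.1 methylation was 80, 83.3, 100, 100 and 66.7% in 5 older nestlings, and 42.9 to 62.5% in 9 younger ones (median 55.6%). The difference of 30.1 points (adjusted p = 0.000593) was uneven between ring series. It was 41.6 points where ring numbers started with 6 (4 older and 2 younger nestlings) and 8.87 points where they started with 7 (1 older and 7 younger). With ring series as a further covariate the call was lost (adjusted p = 0.0226).

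Position 87486 of scaffold VYZT01057628.1 was read as 85.7, 100, 100, 100 and 100% methylated in 5 older nestlings and as 50 to 90.9% in 10 younger ones (median 66.7%). The means were 29.1 points apart (adjusted p = 0.000144), and 1 of 5 older nestlings overlapped with the younger range. Of 5 other tested sites within 200 bp, 2 differed in the same direction, and the median difference of the 5 was -5.76 points. The nearest lay 2 bp away, at position 87484. There the older nestlings had 100, 100, 87.5, 100 and 100% and the younger ones 55.6 to 100%, a difference of 26.6 points in the same direction.

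Among the called sites lower in older nestlings, position 4329 of scaffold VYZT01017263.1 differed most. Methylation was 0% (lowest), 42.7% (median) and 83.3% (highest) in 6 older nestlings, and 64.7, 90.6 and 100% in 10 younger ones. All 12 reads of older nestling 61667 were read as unmethylated, and older nestling 61525 with 83.3% was the only one inside the younger range. The means were 43.6 ± 27.0% in older and 90.4 ± 11.1% in younger nestlings, a difference of -46.8 points (adjusted p = 0.000165). With ring series as a further covariate the call was lost (adjusted p = 0.0184). Of the 5 nestlings aged 16 days with a value, 1 was at 0% and the other four were between 83.3 and 90%.

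At position 20014 of scaffold VYZT01027965.1 the older nestlings had 70, 62.5, 60, 62.5 and 23.1%, against 88.9 to 100% in 8 younger nestlings (median 100%). The classes did not overlap, and the difference was -40.2 points (adjusted p = 1.92e-06). All 8 younger nestlings had ring numbers starting with 7, as did 1 of the 5 older ones, nestling 79328 with 23.1%. With ring series as a further covariate, the predicted difference was -57.0 points, and it rests on that 1 older nestling.

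Position 74680 of scaffold VYZT01007419.1 had 9.09, 53.8, 58.3, 44.4 and 58.3% in older nestlings and 60, 83.2 and 100% (lowest, median and highest) in 8 younger ones. No older nestling reached the lowest younger value, although the gap between 58.3 and 60% was less than the weight of 1 read. The difference was -39.2 points (adjusted p = 0.00992).

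At position 195276 of scaffold VYZT01001947.1 methylation was 8.33% (lowest), 63.9% (median) and 71.4% (highest) in 6 older nestlings, against 83.3, 93.3 and 100% in 10 younger ones, a difference of -38.1 points (adjusted p = 0.00296). The lowest value came from nestling 79328, and without any 1 nestling the difference stayed between -41.5 and -28.9 points. The only other tested site within 200 bp, 13 bp away at position 195263, followed the same pattern. It had 58.3, 62.5, 57.1, 75.0, 52.9, 0 and 62.5% in 7 older nestlings and 69.2 to 100% in 10 younger ones, a difference of -33.1 points, and nestling 79328 was again the lowest, with 0 of 12 reads methylated. Reads that span both positions can be shared, so the 2 sites are not independent. Single neighbours of the named sites are described only where they shared the direction of the site. At the other named sites, the median difference of the neighbours within 200 bp was small. Where older nestlings were higher, it was 1.74 points (position 33067), 1.65 (55093), 1.08 (300457), 3.84 (6186) and -5.76 (87486). Where they were lower, it was -1.27 points (4329), -1.34 (20014), -5.20 (74680) and -2.47 (32946).

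Position 32946 of scaffold VYZT01012442.1 had 66.7, 50, 75.0, 54.5 and 50% in older nestlings and 75.0, 100 and 100% (lowest, median and highest) in 9 younger ones. The difference was -34.0 points (adjusted p = 0.000105). The median of 10 reads per older nestling stood against 6 per younger nestling.

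**Figure D2:**
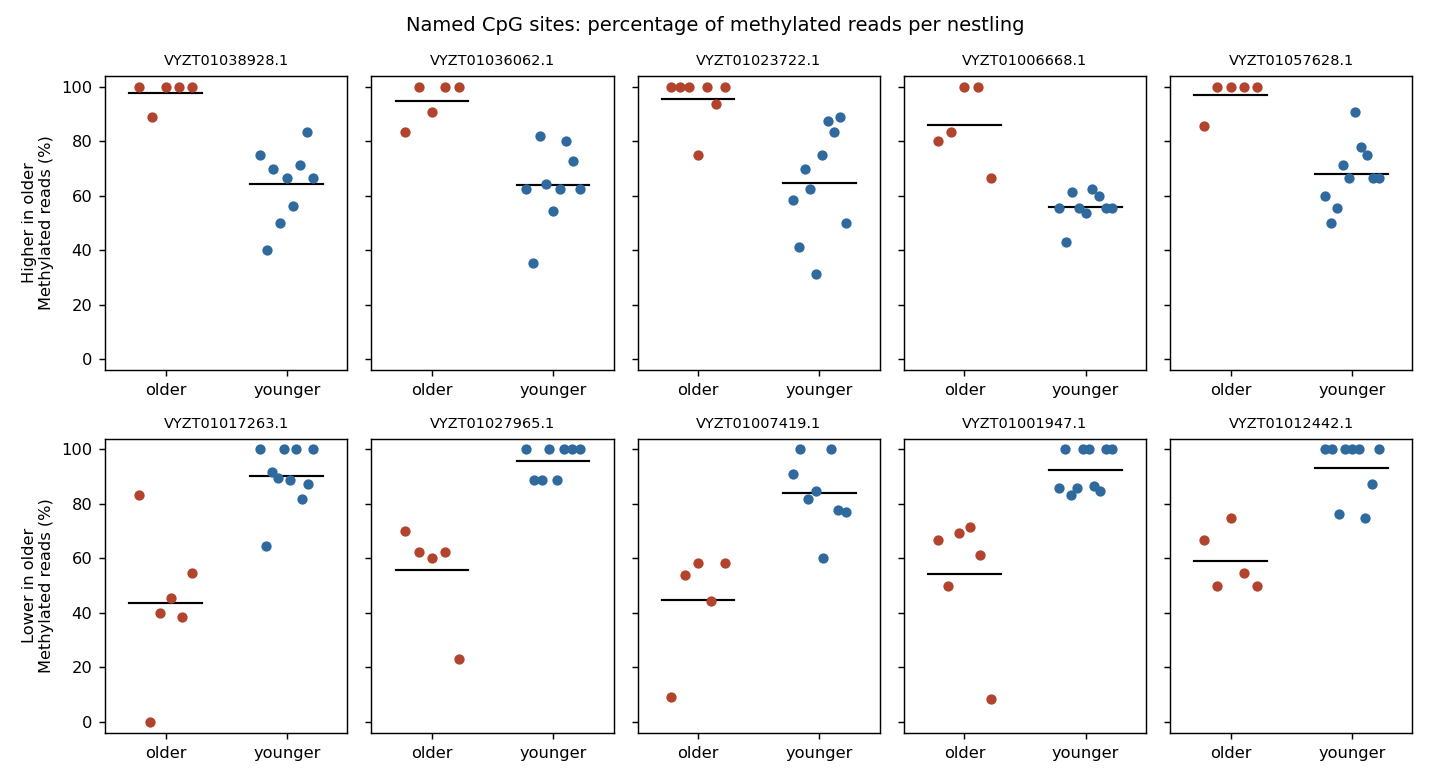
Percentage of methylated reads at the 10 named sites, 1 panel per scaffold, with 1 point per nestling (older in red at the left, younger in blue at the right) and a line at the mean of each class. In the upper row all 5 to 7 older nestlings with a value lie at 66.7% or more, and in the lower row all younger ones lie at 60% or more.

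Values at the ceiling were found in the class with the higher methylation. The sites had been chosen for distant class means, so the shares given next are a description. At the 30 sites higher in older nestlings, 46.8% of the older values were exactly 100%, against 0% of the younger ones. At the 35 sites lower in older nestlings, 0% of the older values and 32.3% of the younger ones were exactly 100%. Values of 100% made up 32.1% of older and 30.7% of younger values over all tested sites. The younger share at the 35 sites was near its background, and the older share at the 30 sites was above its own. By the recovered reads, values of 100% at all tested sites rested on a median of 7 reads, against 10 reads behind values under 100%. As few as 5 methylated reads then sufficed for a value, whereas a value of 0% took at least 10 reads. At the 30 sites the median was 8 reads in older and 10 in younger nestlings, and at the 35 sites 10 reads in older and 9 in younger nestlings. Missing values were more frequent at the called sites. Of older values 27.9% were missing at the 30 and at the 35 sites, against 20.1% over all tested sites. Of younger values 29.0% were missing at the 30 sites and 25.1% at the 35, against 21.9%. With the mean reads of each nestling as a further covariate, 53 of the 65 sites were called again, in a set of 171 (0.0122% of the sites fitted). With values of at least 10 reads, 49027 sites could be fitted and 5 were called (0.0102%). Of the 65 sites, 3 could be fitted in this way and 2 were called again. With ring series as a covariate, 27 of the 64 that could be fitted were called again, in a set of 695 (0.0498% of the sites fitted), and among nestlings raised by groups 19 of 44, in a set of 217 (0.0184%). Against all nestlings of 16 days or less 10 of the 65 were called again, in a set of 19 (0.00134%), and with age in days 6 of the 65, in a set of 33 (0.00211%). None of the 10 named sites kept an adjusted p of 0.01 or less against nestlings of 16 days or less, and 1 of them did with age in days.

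The direction at the called sites was the same inside smaller sets of nestlings, which is a description since the sites had been chosen on these values. It was kept at 65 of 65 sites among nestlings raised by groups and at 46 of 46 sites with at least 2 values per age among those raised by pairs. With ring numbers starting with 6 it was kept at 23 of 23 such sites, and with those starting with 7 at 42 of 42. Between the single older and the single younger nestling of natal group CEG it was kept at 52 of 52 sites, with a median difference of 28.6 points. In natal group OFS, with 1 older and 2 younger nestlings, it was kept at 44 of 45. In both natal groups the older nestling had a ring number starting with 6 and the younger ones had numbers starting with 7. The CEG nestlings also differed in carers, the older one raised by a pair and the younger one by a group. Age and ring series cannot be told apart in these contrasts.

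The mean of the nestlings aged 16 days lay between those of the older and the younger class at 58 of the 65 sites, and it was nearer to the younger mean at 46. On a scale from 0 at the younger mean to 1 at the older mean, the median position was 0.417. At sites chosen for distant means, the mean of any further set of nestlings tends to fall between them, so these values are a description. At 19 of the 65 sites no older value overlapped with a younger one. Without any choice on the difference this was so at 0.0177% of all tested sites, and nothing is read from the contrast.

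Neighbouring sites shared part of the direction of a called site. Within 200 bp, 56 of the called sites had other tested sites, and 338 of these 498 neighbours (67.9%) differed between the ages in the same direction as the called site. Over all pairs of tested sites, the share with the same direction was 55.7% at distances of 1 to 10 bp, 53.7% at 11 to 50 bp, 51.4% from there up to 100 bp, 50.8% up to 200 bp and 50.3% up to 1000 bp. Sites close to each other can be covered by the same reads. The called sites had been chosen for large differences, with a median absolute raw difference of 27.5 points against 3.85 over all tested sites. The pairs had not been chosen in this way. The neighbours were also unevenly spread, with 42 of them at 1 called site. The share of 67.9% is therefore a description, and nothing is read from the contrast with all pairs. Of the 14 called sites with a tested site 1 base away, 10 had a partner that differed in the same direction, by a median of 4.23 points in the direction of the call, well short of the 25 points of the limit.

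**Figure D3:**
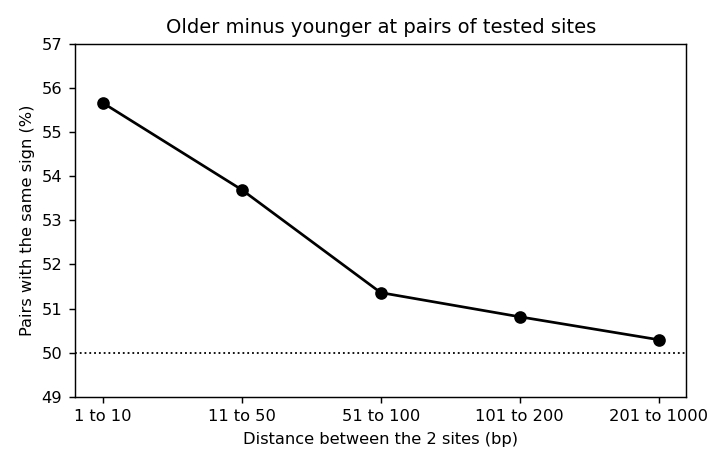
Share of pairs of tested sites at which older minus younger methylation had the same sign (percent), by the distance between the 2 sites in bp. The share was 55.7% at the shortest distances and 50.3% at the longest, and the dotted line marks 50%.

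The number of called sites changed with the test. Under the same model a likelihood ratio test in place of the Wald test called 1 site (7.15e-05% of those fitted), higher in older nestlings. That site was among the 65 but not among the 10 named sites. limma on logit values, which shares the spread between sites, also called 1 site (7.15e-05% of 1398982), and that site was not among the 65. Quasi-binomial regression on the recovered reads called 0 sites (0.0%) at an adjusted p of 0.01, with 54511 sites (3.94%) at an unadjusted p under 0.05. The Wald test had 9.15% of all sites at an unadjusted p under 0.05, the likelihood ratio test 7.79% and limma 4.89%. At the 65 sites, limma gave an unadjusted p under 0.05 at all 65, and the quasi-binomial test at 64 of the 64 it could fit. These p-values come from the nestlings on which the sites were chosen, and are a description. With any 1 nestling left out, the count was between 56 (without nestling 79328) and 84 (without nestling 62645), and between 23 and 57 of the 65 sites were among those called. Sites with few values drop out of such fits, so that 39 to 61 of the 65 could be fitted with a nestling left out. In all 21 fits 27 of the 65 could be fitted, and 5 were called in each.

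**Figure D4:**
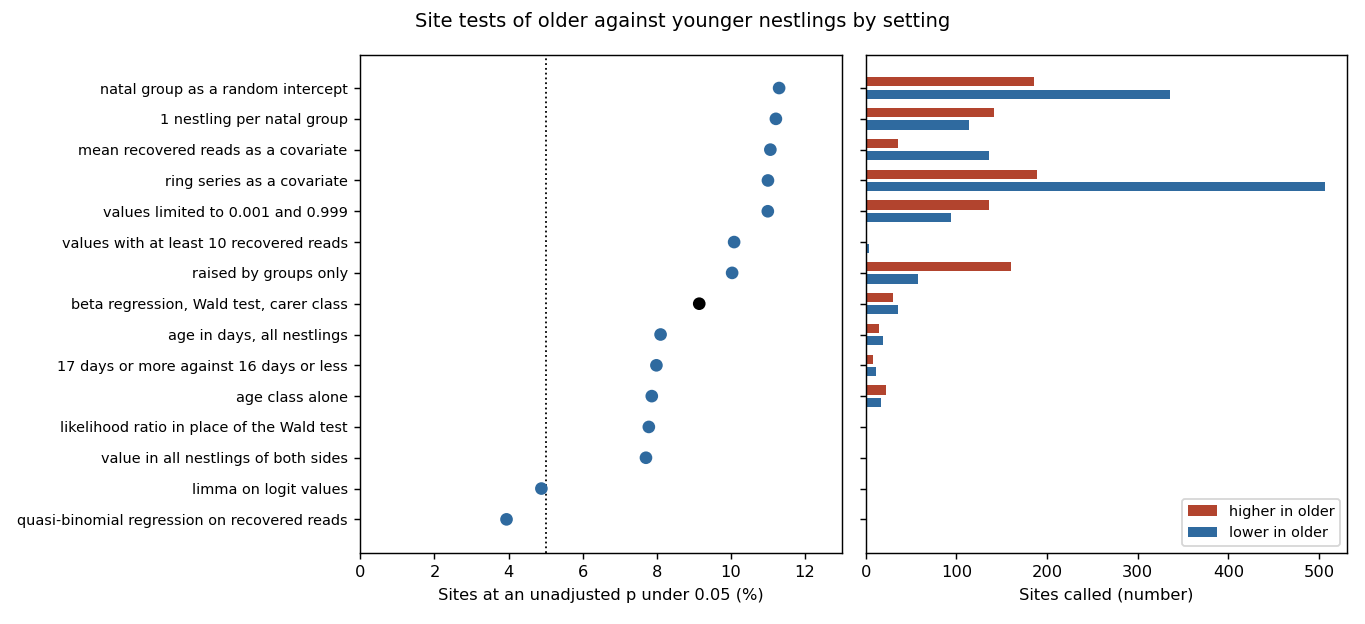
Share of sites with an unadjusted p under 0.05 (left, percent, with a dotted line at 5%) and number of called sites higher (red) and lower (blue) in older nestlings (right) for each setting of the site test. The beta regression with the Wald test and carer class is in black at 9.15%, with 30 and 35 sites called, and limma and quasi-binomial regression lie at 4.89 and 3.94%.

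The site that limma called was position 5421 of scaffold VYZT01014663.1, described here after its values were seen. It was read as unmethylated in all 10 younger nestlings with a value, at 0 of 163 reads. By the limit of 3 counts this allows a share of up to 1.84% in the pooled reads of these 10. It sets no such limit for other nestlings of that age, since nestlings differed widely at this site. The 6 older nestlings had 4.17% (lowest), 50.5% (median) and 100% (highest), and each had at least 1 methylated read. The difference was 54.4 points (limma, adjusted p = 0.00171; beta regression, adjusted p = 0.0155). The 16-day nestlings were split, with 3 at 0%, 1 at 70% and 1 at 100%. Whether nestlings differed in DNA sequence at this site was not tested. All younger values were at 0%, as here, at 5 tested sites and all older values at 17, of which 3 were shared. A class without any spread was more frequent at 100%, at 534 tested sites in younger and 8271 in older nestlings. The 31 other tested sites within 200 bp were methylated in both ages, at an average of 83.0% in older and 81.3% in younger nestlings, and their differences ran from -11.0 to 11.3 points.

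Pooled over windows of 2 kb, no region passed the test of the difference between the ages. Among 112931 windows with at least 3 tested sites, 0 (0.0%) passed an adjusted p of 0.01 with limma, the smallest adjusted p was 0.804, and 5276 windows (4.67%) had an unadjusted p under 0.05. The median window held 7 sites. The median absolute difference was 1.69 points, and 485 windows differed by 10 points or more.

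The 3 windows in each direction with the smallest p are described although none passed the test. In the window from 210001 to 212000 of scaffold VYZT01043817.1, the 18 tested sites deviated from their site means by 1.61 to 5.92 points in 8 older nestlings, and by -7.92 to -0.677 points in 11 younger ones. The classes did not overlap, and 13 of the 18 sites shared the direction of the mean difference of 7.25 points, with a largest difference of 38.4 points at 1 site (limma, adjusted p = 0.804). From 336001 to 338000 of scaffold VYZT01011861.1, all 9 sites, which span positions 336644 to 336812, were higher in older nestlings, by 6.43 to 15.4 points. Their mean level was 92.4% in older and 81.1% in younger nestlings (limma, adjusted p = 0.804). The third window higher in older nestlings, from 248001 to 250000 of scaffold VYZT01054299.1, held 3 sites and differed by 13.4 points (limma, adjusted p = 0.884).

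Of the windows lower in older nestlings, the one from 48001 to 50000 of scaffold VYZT01038470.1 had 6 sites, all lower in older nestlings (-17.4 to -4.83 points). Deviations ran from -15.2 to -0.173 points in 8 older and from -0.939 to 11.8 points in 11 younger nestlings, so that 1 older and 1 younger nestling overlapped. The levels were 75.2% in older and 87.2% in younger nestlings, a difference in deviation of -12.1 points (limma, adjusted p = 0.804). In the window from 30001 to 32000 of scaffold VYZT01038301.1 the 3 sites differed by -14.1 points on average, and in that from 10001 to 12000 of scaffold VYZT01025255.1 the 4 sites, between positions 11136 and 11149, differed by -11.7 points (limma, adjusted p = 0.804 for both). With ring series as a further covariate the unadjusted limma p of the 6 windows ranged from 0.000124 to 0.132.

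**Figure D5:**
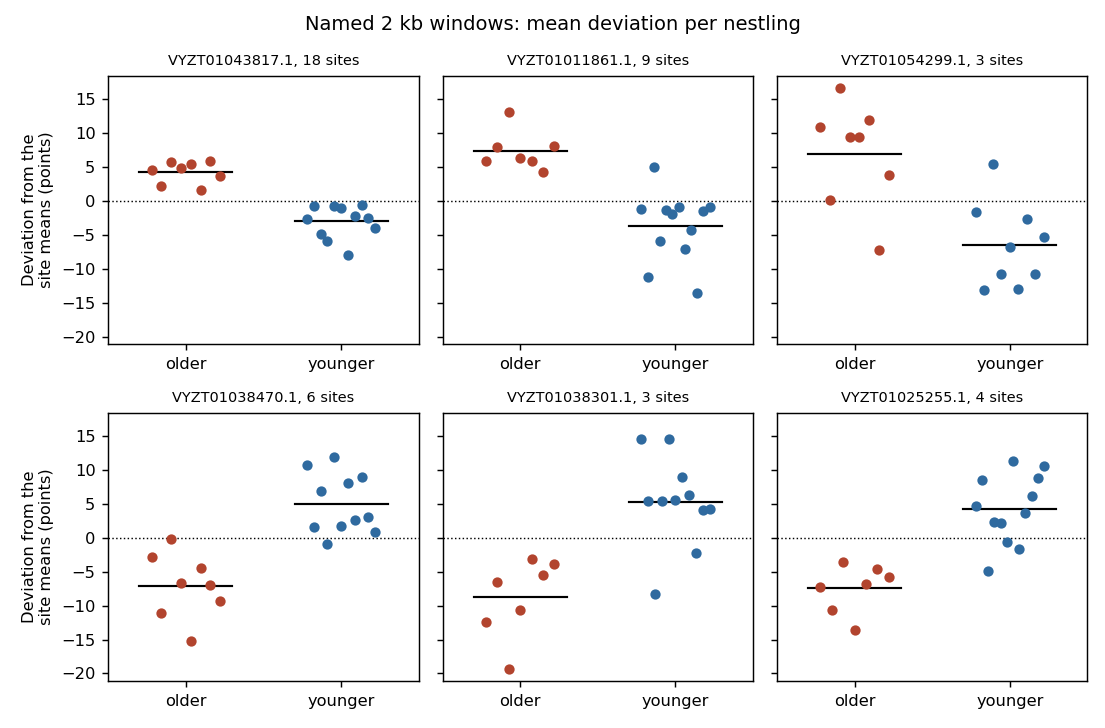
Mean deviation from the site means (percentage points) per nestling in the windows of 2 kb with the 3 smallest p in each direction, older nestlings in red at the left and younger ones in blue at the right, with a line at the mean of each class. In the first window the 8 older nestlings lie between 1.61 and 5.92 points, all above the 11 younger ones, and none of the windows passed the adjusted test.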

How the data were processed

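The authors sequenced enzymatically converted blood DNA, used HTStream for trimming and Bismark for mapping to the babbler genome, and removed sites of low coverage, of very high coverage, absent from much of either carer class, or of low variation. The percent values deposited give, for each site and nestling, the part of the reads that was methylated, and were not normalized. Deposited read counts exist in 1 nestling, aged 16 days. For the other 27, reads were recovered from the deposited coverage, read as the unmethylated reads plus 2 times the methylated ones, each term entering only from 10 upwards. That reading gave whole numbers of reads for 100% of values in these 27 (tolerance 1e-06) and was chosen after seeing the data. In the nestling with deposited counts, the same reading resolved 7.17% of values under 100%, against 7.42% with its coverage shuffled. The reading does not hold there, so the recovered reads could not be checked against deposited counts. A further 3 columns per nestling were not used.

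Age classes, natal groups and carers were read from the deposited table. A beta regression with a logit link was fitted at every site, with age class and carer class as terms. Percentages were first drawn in from both limits, y becoming (y(n-1)+0.5)/n for n values. The fit failed at 5 sites. A Wald test gave p, adjusted by Benjamini-Hochberg, and sites were called at 0.01 with predicted means 25 points apart. Brood, a random term in the methods of the study, was not used, and natal group took its place as an alternative (Laplace approximation). Natal group need not be the brood in which a cross-fostered nestling was reared. Cross-fostering status, a covariate in the study, was not used either. Windows of 2 kb were tested with limma on mean deviations from the site means, for nestlings with at least 50% of the sites of a window. Values per nestling were compared by two-sided permutation tests, exact between age classes and with 100000 resamples for correlations. Named sites were the 5 in each direction with the largest raw difference among called sites with raw means 25 points apart, and named windows the 3 in each direction with the smallest p. The scripts were tested on simulated data. The age limits, lists and tests were chosen with earlier results of these data known. Alternatives covered the test, covariates, depth, natal group, age limits, filters and each nestling left out. Gene names and sequences were not analysed here, so variants in DNA sequence were not told apart from differences in methylation. Fits used limma 3.58.1 (R 4.3.3) and Python 3.11.15, with scipy 1.17.1, numba 0.67.0 and numpy 2.4.6.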

Additional observations from a re-analysis of the deposited data

Results flagged for a closer look

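Each of the values below lay farther from the rest of its age class at a named site than the limit for its number of nestlings. With normally distributed values, chance alone marks about 1 group in 20. Of 38 groups of 4 to 10 values examined, 8 had such a value. These values are percentages of few reads, in part tied at 100%, at sites chosen for their difference between the ages. The count is therefore not set against the rate of 1 in 20. Older nestling 62534 had the lowest older value at 2 sites, 88.9% at position 33067 of scaffold VYZT01038928.1 where the other four were at 100%, and 75.0% at position 300457 of scaffold VYZT01023722.1 where the next was 93.8%. Older nestling 61511 had 85.7% at position 87486 of scaffold VYZT01057628.1, with the other four at 100%, and 9.09% at position 74680 of scaffold VYZT01007419.1, with the next at 44.4%. Older nestling 79328 had 23.1% at position 20014 of scaffold VYZT01027965.1, with the next at 60%, and 8.33% at position 195276 of scaffold VYZT01001947.1, with the next at 50%. Among younger nestlings, 62618 had 42.9% at position 6186 of scaffold VYZT01006668.1, with the next at 53.8%, and 79513 had 64.7% at position 4329 of scaffold VYZT01017263.1, with the next at 81.8%. No older or 16-day nestling stood apart in this way in its mean methylation, number of sites or reads, and no older one in its spread.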

How the results depend on the processing

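Of the alternatives to the 65 called sites, 23 gave a count within 1.5 times of it, 21 of them with 1 nestling left out (56 to 84 sites, 28.1 to 58.0% higher in older nestlings). Other limits gave 2283 sites (predicted means 10 points apart), 2435 (no limit on the difference) and 123 (adjusted p of 0.05, 34.1% higher in older nestlings). The likelihood ratio test gave 1 site (100% higher), limma 1 (100% higher, and the same at an adjusted p of 0.05 without a limit on the difference, an alternative added after seeing the data), and quasi-binomial regression 0. With a value in all 21 nestlings there were 15567 sites and 0 calls by beta regression (1200 at an unadjusted p under 0.05), and with at least 10 reads per value 5 calls (20% higher). Age class alone gave 39 sites, nestlings raised by groups 217 (73.7% higher), mean reads as a covariate 171 (20.5% higher), and ring series as a covariate, added after seeing the data, 695 (27.2% higher). Against nestlings of 16 days or less there were 19, with age in days 33, and with 1 nestling per natal group 255. Natal group as a random intercept gave 521 and failed at 62140 sites. Of these 521, only 117 had raw means at least 25 points apart. With values kept 0.001 inside the limits of 0 and 1 there were 230 (59.1% higher). Direction was kept under each of these alternatives at each of the 65 sites that could be fitted. With other limits on p or on the predicted difference, the likelihood ratio test and limma, it was taken from the main fit and could not change. The remaining fits included nestlings on which the sites had been chosen, so the kept direction is a description. The causes of the changed counts were not tested.

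Windows had 0 calls under all 29 alternatives. The difference in mean methylation changed sign with at least 10 reads (-0.182 points), residuals on reads (-0.149), natal group means (-0.0403) and without nestling 79676 (-0.218). Averaged over the differences within each carer class, both counted equally whatever their number of nestlings, it was -0.352 points. Added after seeing the data were pairs only (-1.05) and the same kind of average over the ring series (-0.213). With each nestling left out the difference in mean methylation ran from -0.218 to 0.228 points. The correlation with age was -0.189 among pairs. With at least 10 reads, the differences at intermediate, high and clustered sites were -0.206, -0.177 and -0.178 points. The spread passed its test over all sites (0.475 points, exact permutation p = 0.00127) and with at least 10 reads (0.555 points, exact permutation p = 0.00225). Scaled for class size, a correction added after seeing the data, these were 0.135 (exact permutation p = 0.279) and 0.210 points (exact permutation p = 0.192), and with residuals on reads -0.00911 points. In each of these tests the spread values were kept as formed in the actual classes, so their p-values are a description. Nestling 79687, aged 16 days, entered neither the site calls nor the difference in mean methylation, and without it the site classes differed by -0.151 (low), 0.101 (intermediate) and 0.0116 points (high). Pairing was limited to the 2 natal groups with nestlings of both ages, given in the report. Depth limits single values, at a median of 9 recovered reads.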

Other observations

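The methods state that both strands were collapsed into a single value, yet 495826 of the 1398982 tested sites had another tested site 1 base away. At the 14 called sites with such a partner, the partner differed between the ages by -17.4 to 11.6 points. At position 71829 of scaffold VYZT01060709.1 the older nestlings were higher by 26.9 points, while at position 71828 they were lower, at 63.5% in older and 76.3% in younger nestlings. What the paired positions stand for was not tested.

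All older values were exactly 100% at 8271 tested sites, and all younger values at 534, where the younger class also had more nestlings to agree.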
